A study of Mus musculus with 84 samples.

Results

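The members examined here are Gja1, Gja4, Gja5 and Gjc1, the 4 connexin genes associated with vascular endothelium, chosen by symbol from the 20308 rows of a TPM table. All 4 symbols had a row, and each was followed over all 84 cells of the series. The cells had been isolated from mouse embryos at E11.5, out of the AGM (aorta-gonad-mesonephros), the trunk region around the dorsal aorta and the embryonic kidney. They had been sorted as CD31+CD144+CD41-CD45-, a gate that takes endothelial cells and sets aside cells with the platelet and early blood marker CD41 or the blood marker CD45, and each was captured singly on a C1 chip and turned into a full-length cDNA library. The sources used here name no genotype, treatment or embryo, and the 84 cells were handled as a single group and a single sample: all values are descriptions of these cells, no difference between cells was tested, and intervals cover counting error over cells only.

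Connexins are membrane proteins that assemble into rings, and rings of neighbouring cells dock head to head to form gap junction channels, through which ions and small molecules pass directly between cells. Different connexins can mix within a ring or across a junction, so which of them are made by the same cell bears on which channels it can build. In blood vessels Gja1 (connexin 43) is widely expressed and is prominent where flow is disturbed. Gja4 (connexin 37) and Gja5 (connexin 40) are known as connexins of arterial endothelium, and Gja4 also of lymphatic valves. Gjc1 (connexin 45) is known from early vessels, vascular smooth muscle and the conduction system of the heart.

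In RefSeq's annotation of GRCm38.p6, the assembly that the build name mm10 stands for, Gja1 lies on chromosome 10 (56377300 to 56390419), Gja4 on chromosome 4 (127311420 to 127314039), Gja5 on chromosome 3 (97032402 to 97053634) and Gjc1 on chromosome 11 (102799477 to 102819686). Among GENCODE M21 transcripts of the same assembly, only those with the coding part in a single exon were considered. The longest such coding part had 382 codons in Gja1, 333 in Gja4, 358 in Gja5 and 396 in Gjc1. Docking of rings is made by a pair of extracellular loops, each held by 3 cysteines. The coding stretches from the first to the last of these cysteines in the first loop are shown because they hold a shared signature by which the 4 genes can be recognised as a family; capitals mark the cysteine codons. They are given 5′ to 3′ on the coding strand.
Gja1, chr10:56387706-56387741 (+): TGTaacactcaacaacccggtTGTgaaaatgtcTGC
Gja4, chr4:127312774-127312809 (-): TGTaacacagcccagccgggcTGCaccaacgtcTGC
Gja5, chr3:97050788-97050823 (+): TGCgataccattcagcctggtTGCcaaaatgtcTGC
Gjc1, chr11:102800984-102801019 (-): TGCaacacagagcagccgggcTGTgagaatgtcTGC
The cysteine codons had the same spacing in all 4 genes, and the bases between them differed. Of the 36 bases, between 23 (Gja4 and Gja5) and 28 (Gja1 and Gjc1, Gja4 and Gjc1) were shared by a pair. The short stretches of likeness did not reach the 67 bases of a read. No word of 67 bases in the transcripts of Gja1, Gja4 or Gjc1 occurred in a transcript of another gene. In Gja5, 825 of 5742 such words (14.4%) also occurred in transcripts of Gpr89 or Zfp697, so part of its reads could be divided between genes. Gpr89 overlaps Gja5 on the opposite strand in that annotation. The counting is not stated to use strand. Zfp697 was detected in 53 cells and Gpr89 in 46, with 4 and 3 of the Gja5 cells among them, and their correlations with Gja5 were -0.12 and -0.10.

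The connexins fell into a pair found in nearly every cell and a pair found in few. Detection in a cell means TPM 1 or more throughout. Gja1 was detected in 84 of 84 cells (100%, exact 95% interval 95.7% to 100%) and Gjc1 in 77 (91.7%, 83.6% to 96.6%). Gja4 was detected in 23 cells (27.4%, 18.2% to 38.2%) and Gja5 in 8 (9.52%, 4.20% to 17.9%). The interval of Gja5 ends below the start of that of Gja4, and both lie far from those of Gja1 and Gjc1, while the intervals of Gja1 and Gjc1 overlap.

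Gja1 was also the connexin with the highest level, on a scale that is per transcript length. Its TPM ran from 3.43 to 2118, with a median of 238 and quartiles of 135 and 404, and 71 cells held 100 TPM or more. By mean level it ranked 570 among all genes of the table. Only 3 cells fell under 10 TPM, cells 41, 7 and 5 with 3.43, 4.21 and 9.84 TPM. Gja1 was thus spread over the cells: the 5 highest held 20.4% of all its TPM.

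Gjc1 was nearly as widespread at a lower level. Its quartiles were 3.40 and 100.3 TPM around a median of 34.005, its maximum was 577 TPM in cell 25, and 55 cells reached 10 TPM. The spread over cells was wide, with an SD of 2.52 on the log2(TPM + 1) scale against 1.55 for Gja1. The 7 cells in which Gjc1 was not detected held Gja1 at 3.43 to 350 TPM and neither Gja4 nor Gja5.

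Gja4 was high in the cells that held it and listed at 0 in most others. It was above 0 in 26 cells, of which 3 lay between 0 and 1 TPM. In the 23 cells with TPM 1 or more the median was 156 TPM, with a lowest value of 1.86 and a highest of 1719. Cell 75 held 1719 TPM, cell 32 held 799, cell 4 held 732 and cell 36 held 555. The next 5 cells lay between 240 and 351 TPM (cells 70, 22, 45, 80 and 43), and 14 cells in all reached 100 TPM. The cells with Gja4 formed a continuous scale down to cell 68 with 1.86 TPM, and the 5 highest held 65.1% of all its TPM. In the same 23 cells the median of Gja1 was 295 TPM, above that of Gja4.

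Gja5 was the rarest member. Its 8 cells held 101 TPM (cell 80), 99.9 (cell 32), 92.0 (cell 64), 86.5 (cell 82), 42.6 (cell 4), 20.5 (cell 5), 2.70 (cell 81) and 1.77 (cell 84). A further 12 cells held between 0.11 and 1 TPM, so a rule of any TPM above 0 would have given 20 cells in place of 8. The 4 highest cells lay close together, and 1 cell passed 100 TPM. The median over the 8 cells was 64.6 TPM, against 44.6 for Gjc1 over its 77 cells, so the low mean of Gja5 went with the small number of cells that held it. By mean level Gja5 ranked 9562, Gja4 2210 and Gjc1 2450.

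**Figure D1:**
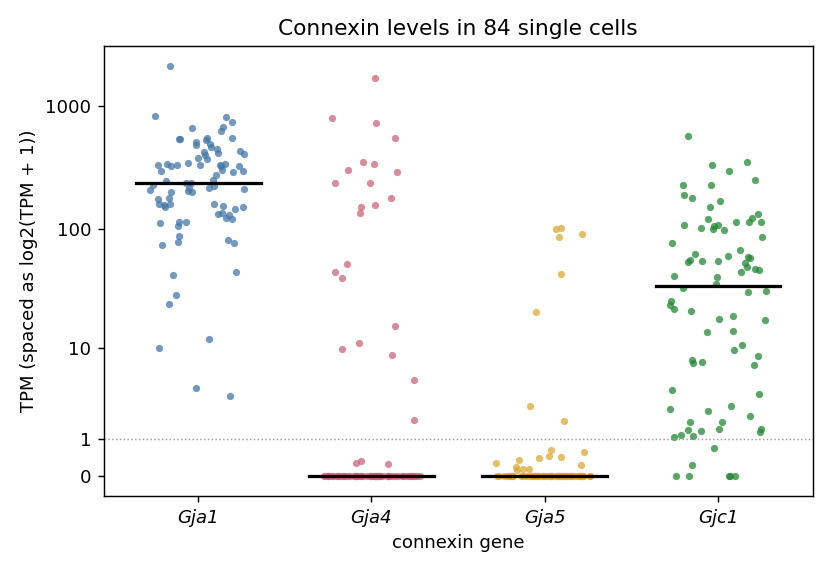
TPM of Gja1, Gja4, Gja5 and Gjc1 in each of the 84 cells (points, shifted sideways for visibility), on a log2(TPM + 1) axis, with the median as a bar and TPM 1 as a dotted line. Gja1 lay at 3.43 TPM or above in every cell, Gjc1 spread from 0 to 577 TPM, and Gja4 and Gja5 were at or near 0 in most cells.

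Which connexins share cells was examined next. Gja1 with Gjc1 and no other member was the most frequent set, in 52 cells (61.9%, 50.7% to 72.3%). Gja1, Gja4 and Gjc1 were found together in 17 cells (20.2%, 12.3% to 30.4%), and all 4 members in 6 cells (7.14%, 2.67% to 14.9%), cells 4, 5, 32, 80, 81 and 82. Gja1 alone was found in 7 cells, and Gja1, Gja5 and Gjc1 without Gja4 in 2, cells 64 and 84. Since Gja1 was in every cell, no cell held fewer than 1 member, and neither Gja4 nor Gja5 was ever found without both Gja1 and Gjc1.

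Gja4 and Gja5 were found together more often than their separate frequencies give at TPM 1. Both were detected in 6 cells, against 2.19 cells if they were distributed independently, a ratio of 2.74 (1.02 to 5.71, from the exact interval of the shared count). The 6 shared cells are 6 of the 8 cells with Gja5 and 6 of the 23 with Gja4. At TPM 10 the pair shared 5 cells against 1.36, a ratio of 3.68 (1.21 to 8.26). At any TPM above 0 it shared 10 against 6.19, a ratio of 1.62 whose interval includes 1 (0.795 to 2.82). These intervals hold the expected count fixed and are no test of independence. At TPM 1 and TPM 10 they run past the highest ratios the pair could reach, which are 3.65 and 4.42. Ratios of 2.40 to 3.25 were found when each set of 12 cells with the same second index was left out in turn.

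The other pairs had little room to depart from independence. All 23 cells with Gja4 and all 8 with Gja5 also held Gjc1, ratios of 1.09 each, which is the highest ratio either pair could reach. At TPM 10 Gja4 and Gjc1 shared 14 cells against 12.4, and Gja5 and Gjc1 shared 3 against 3.93. Pairs with Gja1 are fixed at a ratio of 1 by its presence in all cells. At TPM 10 their ratios were 0.982 with Gja4, 0.864 with Gja5 and 1.02 with Gjc1.

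The 8 cells with Gja5 differed in the company it kept. Cell 32 held Gja5 at 99.9 TPM with Gja4 at 799, Gja1 at 160 and Gjc1 at 230 TPM, the highest level of Gjc1 in any cell with Gja5. Cell 4 held Gja4 at 732, Gja1 at 538 and Gjc1 at 45.7 TPM beside Gja5 at 42.6, and cell 80 held Gja4 at 295, Gja1 at 295 and Gjc1 at 7.22 TPM beside Gja5 at 101. Cells 82 and 5 held more Gja4 (156 and 181 TPM) than Gja1 (115 and 9.84 TPM). Cell 64 stood apart: Gja5 at 92.0 TPM with Gja4 listed at 0, Gja1 at 401 and Gjc1 at 1.41 TPM. Cells 81 and 84 held Gja5 near the detection limit, with Gja4 at 5.04 TPM and at 0.

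**Figure D2:**
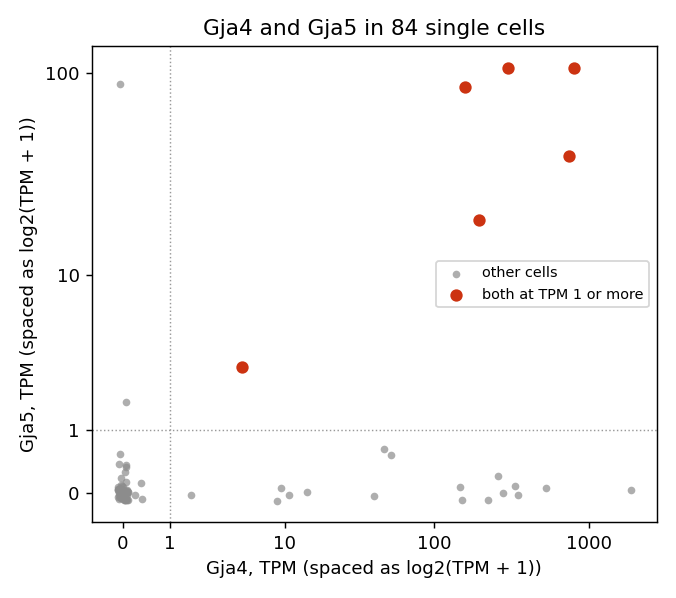
Gja4 (horizontal) against Gja5 (vertical) in the 84 cells, both on log2(TPM + 1) axes, with points shifted slightly for visibility, dotted lines at TPM 1 and cells holding both genes in red. Of the 8 cells with Gja5 at TPM 1 or more, 6 also held Gja4 at TPM 1 or more, and 17 cells held Gja4 without Gja5.

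Across the 84 cells, Pearson's r on log2(TPM + 1) was 0.44 for Gja4 and Gja5 (Spearman's rho 0.29; r 0.40 without the 2 cells farthest from the median of Gja4). The remaining 5 pairs had r between -0.07 and 0.19, the highest being Gja1 with Gjc1 (rho 0.10). These correlations are descriptions: the cells share a chip and an unknown number of embryos, their depth is unknown, and most values of Gja4 and Gja5 are 0. The ranges of the widespread members in cells with and without the rare ones overlapped. Gja1 had a median of 295 TPM (9.84 to 834) in the 23 cells with Gja4 and 218 (3.43 to 2118) in the 61 without. Gjc1 had a median of 54.6 TPM (1.34 to 230) in cells with Gja4 and 30.2 (0 to 577) in cells without. In the 8 cells with Gja5 the median of Gjc1 was 12.97 TPM, against 40.7 in the other 76.

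Summed over the 4 members, a cell held a median of 344 connexin TPM, from 3.43 in cell 41 to 2556 in cell 75. Gja1 was the highest member in 70 cells (83.3%, 73.6% to 90.6%), and over all 84 cells its median share of a cell's connexin TPM was 83.3%. Gja4 was highest in 7 cells (cells 4, 5, 32, 36, 45, 75 and 82), where its share reached 85.1%. Gjc1 was highest in another 7 (cells 3, 7, 23, 25, 54, 55 and 74), with a share of up to 92.9% in cell 25. Gja5 was highest in 0 cells and never held more than 23% of the sum. Of the 7 cells led by Gja4, 4 also held Gja5 (cells 4, 5, 32 and 82).

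**Figure D3:**
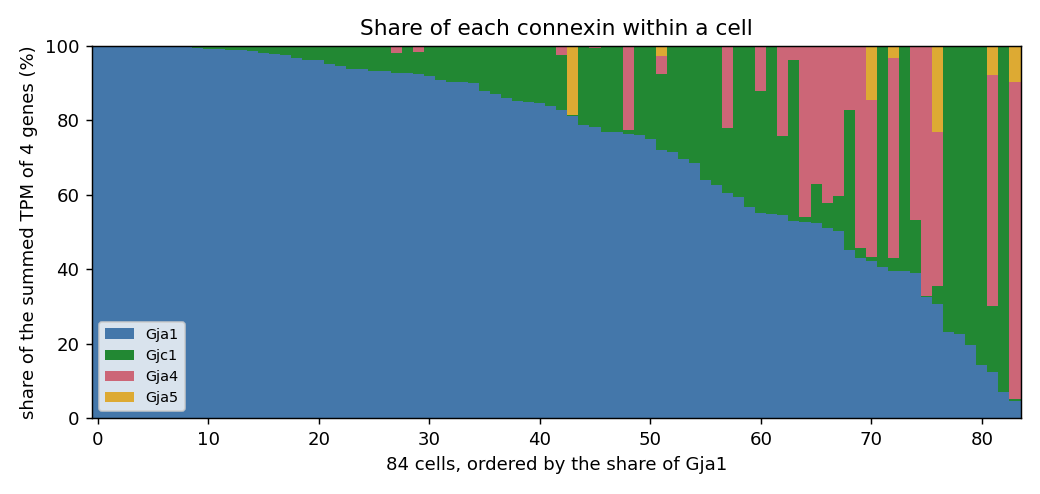
Share of the summed TPM of the 4 connexins held by each member, 1 bar per cell, in percent. Gja1 is the largest piece of the bar in 70 cells, and 7 cells each are led by Gja4 and by Gjc1.

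Technical groupings were set beside these counts. Cells with Gja4 had a median of 7249 detected genes (6464 to 10073), cells without it 6729 (3334 to 9884). For Gja5 the medians were 7470.5 and 6898.5. Detected genes thus moved with both, and their part in the result was not tested; their correlations with the 4 members ran from 0.18 to 0.27. By the second index, which splits the cells into 7 sets of 12, Gja4 was found in 2 to 4 cells of every set. Gja5 was found in 4 of the 7 sets, and 4 of its 8 cells (cells 80, 81, 82 and 84) lay in 1 set. The cells with both Gja4 and Gja5 lay in 3 sets, with 2, 1 and 3 cells.

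Sort and cell identity were checked by transcripts. Of the genes sorted for, Pecam1 (CD31) was detected in 80 cells and Cdh5 (CD144) in 82. Of those sorted against, Itga2b (CD41) was detected in 7 and Ptprc (CD45) in 0. In 40 cells, 3 or more markers of a non-endothelial list reached TPM 10. Clustering without any listed gene gave 8 cells led by Crabp2, Crabp1 and Igfbp5, which are called mesenchyme-like here. In them 9 of 11 mesenchyme genes had a higher mean than in the other 76, by at least 1 on the log2(TPM + 1) scale. All 17 pan-endothelial genes had a mean lower by at least 1. In that comparison 29.5% of 12318 genes were lower by at least 1, so lower values were common, and 5.8% were higher by at least 1. Of the 2 clusters, the one with the higher mean of the mesenchyme list was taken, so that direction was given by the choice. In at least 4 of the 8 cells, the mean over the pan-endothelial genes was above that of some of the other 76. Gja1 was detected in all 8, with a median of 206 TPM (23.8 to 749) against 244 in the other 76. Gja4 was detected in 0 of the 8, which allows a share of up to 36.9% by the exact interval, against 23 of 76 (30.3%). Gjc1 was detected in 7 of the 8 with a median of 5.67 TPM, against 70 of 76 with a median of 40.7. The 8 cells had fewer detected genes, with a median of 5570.5 against 7074.5, and the part of this in the lower Gja4 and Gjc1 was not tested. Gja5 was detected in 1 of the 8 (cell 84). The border of the cluster was not sharp: other settings placed 14 to 22 cells in it, with Gja4 in 1 to 4 of them, and in 3 of those 4 settings the mean of Gjc1 was higher in the cluster, by 0.26 to 0.39.

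Arterial genes had weak positive correlations with Gja4 across cells. Of 19 arterial genes, 14 were detected in 10 or more cells and could be set beside it. All 14 had a correlation with Gja4 above 0, where 65.3% of all genes did, with a median r of 0.27 against 0.05 over all 11134 genes. The number at r of 0.3 or more was 5, against 1.18% of all genes. These were the chemokine receptor Cxcr4 (0.46), the Notch ligand Dll4 (0.35), the growth factor Vegfc (0.32), the Notch ligand Jag1 (0.31) and the receptor Notch1 (0.30), and the lowest of the 14 was the hypoxia factor Epas1 (0.07). As counts of cells, Cxcr4 was detected in 12 of the 23 cells with Gja4 and in 9 of the 61 without. The endothelial transcription factor Sox17 was found in 17 of 23 and 20 of 61, the Notch target Hey1 in 18 of 23 and 27 of 61, and Dll4 in 11 of 23 and 18 of 61. A cell with Gja4 held a median of 7 of the 19 arterial genes at TPM 10 (2 to 12), a cell without it 5 (1 to 9). The number of detected genes had a correlation of 0.27 with Gja4, about that of the arterial median, and its part in these values was not tested.

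Weak positive correlations with Gja4 were not limited to arterial genes. Pan-endothelial genes had a median r of 0.15, with 15 of 17 above 0, and genes regulated by blood flow had a median of 0.15, with 8 of 8 above 0. Lymphatic and valve genes had a median of 0.06 against 0.05 over all genes, with 9 of 11 above 0 and 0 at 0.3. Their highest was Foxc2 (0.27, rho 0.31), found in 12 of the 23 cells with Gja4 and 15 of the 61 without. Their lowest was Pdpn (-0.14). Venous genes had a median near that of all genes. Of the 9 tested, 0 reached r of 0.3, with a median of 0.05 and values from -0.09 for the apelin receptor Aplnr to 0.18 for the scavenger receptor Stab2. Nr2f2, a regulator of venous fate, was detected in all 23 cells with Gja4 (median 118 TPM) and in all 61 without (median 165 TPM). Both groups of cells held a median of 7 of the 9 venous genes at TPM 10. Of the Notch and cell cycle arrest list, 3 of 9 genes reached 0.3, and they are the Notch genes named above. Cdkn1b, the inhibitor p27 reported to act downstream of this connexin in arterial cells, had r of 0.00, and Cdkn1c had -0.12.

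Gja5 showed fewer such relations at its 8 cells. Of the 14 arterial genes only Jag1 reached 0.3 (0.41), against 1.04% of all 11135 genes, with a list median of 0.13 against 0.03. Jag1 was detected in 7 of the 8 cells with Gja5 and 39 of the 76 without. The less common arterial genes Bmx, a kinase, and Hey2, a Notch target, were found in 5 of 8 and 3 of 76 cells, and in 3 of 8 and 1 of 76 cells. The remaining arterial genes detected in fewer than 10 cells were less one-sided. Tmem100 was found in 2 of 8 and 7 of 76 cells, Heyl in 1 of 8 and 7 of 76, and Nt5e in 0 of 8 and 5 of 76. Of 8 genes regulated by blood flow, 3 reached 0.3: the nitric oxide synthase Nos3 (0.33), endothelin Edn1 (0.32) and the transcription factor Klf2 (0.32). With Spearman's rho only Edn1 stayed above 0.3 (0.38), with 0.12 for Nos3 and 0.27 for Klf2, and Jag1 had 0.29. For Gja4 the flow list gave only Nos3 (0.33). Cells with Gja5 held a median of 8.5 arterial genes at TPM 10, against 5 in cells without it (1 to 9). The range with Gja5 was wide, from 12 in cell 32 and 11 in cells 80 and 4 down to 3 and 1 in cells 84 and 64. Cells 84 and 64 held Gja5 and no Gja4. Of the 9 venous genes, a median of 8 reached TPM 10 in cells with Gja5 and 7 in cells without. The venous list had a median r of -0.003 with Gja5. Its highest gene was Stab2 (0.297, rho 0.313), detected in 6 of 8 and 25 of 76 cells.

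Genes of mitosis had weak positive correlations with Gjc1 and Gja1. All 16 G2M genes had a correlation above 0 with Gjc1, where 63.6% of all genes did, with a median r of 0.25 against 0.04. The number at 0.3 or more was 4, against 0.844% of all genes: the ubiquitin-conjugating enzyme Ube2c (0.32), the mitotic kinase Aurkb (0.32), the survivin gene Birc5 (0.30) and the kinetochore gene Cenpf (0.30). For Gja1 the median over these genes was 0.21 against 0.05, and 1 reached 0.3 (Cenpf, 0.31), against 1.08% of all genes; for Gja4 the median was 0.05. Detected genes had a correlation of 0.23 with Gjc1 and 0.18 with Gja1, and their part was not tested. With Spearman's rho 0 of the 16 reached 0.3 for either gene, and the median for Gja1 was 0.09. Of 14 S phase genes, 1 reached 0.3 with Gjc1, the histone mRNA-binding gene Slbp (0.39), and among flow genes Klf4 did (0.33).

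**Figure D4:**
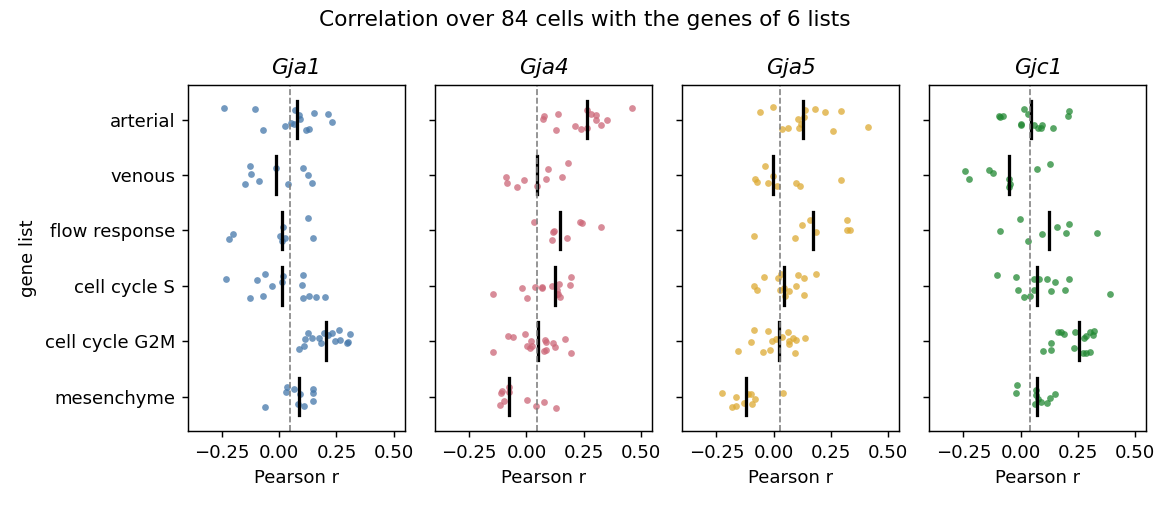
Pearson's r over 84 cells between each connexin and the genes of fixed lists (points), with the median of each list as a bar and that over all genes tested as a dashed line. The arterial points of Gja4 and the G2M points of Gjc1 all lie above 0, with medians of 0.27 and 0.25.

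Counts at r of 0.3 did not set genes of the junction itself apart from all genes. Of 11 genes for partners of connexins, among them the scaffold Tjp1 and the caveolin Cav1, 9 could be set beside the members. Of these, 0 reached r of 0.3 with any of the 4. The same held for 11 genes of endothelial adherens and tight junctions. Over all genes only 0.844% (Gjc1) to 1.18% (Gja4) reached 0.3 with a member, so 0 among so few genes is near that share. The gene most like each member over the 84 cells, among those detected in 10 or more cells, was Fgfrl1 for Gja4 (r 0.50), followed by Cxcr4, Zfp619 (0.44), Socs3 (0.43) and Ptp4a3 (0.42). Of the 14 cells with Fgfrl1, 11 held Gja4, against 3.83 if independent. Fgfrl1 was picked for its high r in these same cells, so this excess follows from the choice and is no separate support. For Gja5 the list was Mall (0.63), Cadps2 (0.58), Agr2 (0.54), Fbln5 (0.52) and Sft2d3 (0.47), each detected in 10 to 13 cells of which 4 or 5 held Gja5. For Gja1 it was Rbm7 and Pttg1 (0.48 each), Zcchc9 (0.46), Eif4e2 (0.44) and Sdhb (0.42), and for Gjc1 Zcwpw1 (0.40), Slbp (0.39), Gas2l3 (0.39), Ndufs1 (0.39) and Slc39a9 (0.37). Some of these rested on few cells. Without the 2 cells farthest from the member's median, r was 0.22 for Sdhb, 0.33 for Pttg1, 0.31 for Eif4e2, 0.46 for Mall and 0.33 for Agr2, and Spearman's rho was 0.15 for Sdhb, 0.19 for Zfp619, 0.18 for Cadps2, 0.12 for Fbln5 and 0.20 for Sft2d3. Gja4 and Gja5 had 18 genes at r of 0.3 or more in common, which is 13.7% of the 131 of Gja4 and 15.5% of the 116 of Gja5. Over all genes, 1.18% reached this limit with Gja4 and 1.04% with Gja5. The 2 members had r of 0.44 with each other, and its part in the overlap was not tested.

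Markers of other cell types were set beside Gja4. The mesenchyme list, with 0 of 11 genes at 0 in every cell, summed to 0.24 to 535 TPM in cells with Gja4 (median 21.01) and to 0.04 to 2854 in cells without (median 7.64). The erythroid list summed to 0 to 619 TPM (median 0.98) and 0 to 148 (median 0), with Slc4a1 detected in 0 cells. The erythroid gene Alas2, an enzyme of heme synthesis detected in 14 cells, had r of 0.39 with Gja4. The smooth muscle list, with Myh11 detected in 0 cells, had a median sum of 10.8 TPM in cells with Gja4 and 0.94 in cells without. The neural list, with Th detected in 0 cells, had 10.7 and 0.98, and beside Gja5 it had 30.4 and 1.73. At least 3 smooth muscle markers reached TPM 10 in 1 of the 23 cells with Gja4 and 4 of the 61 without. At least 3 neural markers did so in 0 and 4. For the mesenchyme list these counts were 10 and 24, for the erythroid list 2 and 0, and for the platelet list 2 and 1. For the epithelial list they were 0 and 2, and for the macrophage list 0 and 0. The macrophage, platelet and epithelial lists had median sums under 3 TPM with and without Gja4. The part of these transcripts in the Gja4 and Gja5 values was not tested. Without the cells that held 3 or more markers of a non-endothelial type at TPM 10, the ratio of shared to independent cells for Gja4 and Gja5 was 2.82.

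Gja4 and Gja5 were the members that varied together, so the 250 bases before each RefSeq start are shown, from RefSeq's promoter table for GRCm38.p6; Gjc1 had no entry there. Capitals mark a GC box, searched as GGGCGG on both strands.
Gja4, chr4:127314040-127314289 (-): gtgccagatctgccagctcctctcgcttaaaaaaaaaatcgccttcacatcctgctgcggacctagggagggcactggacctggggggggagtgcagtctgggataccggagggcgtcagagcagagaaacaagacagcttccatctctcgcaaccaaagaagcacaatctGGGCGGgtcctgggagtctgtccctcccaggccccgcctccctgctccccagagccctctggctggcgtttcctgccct
Gja5, chr3:97032152-97032401 (+): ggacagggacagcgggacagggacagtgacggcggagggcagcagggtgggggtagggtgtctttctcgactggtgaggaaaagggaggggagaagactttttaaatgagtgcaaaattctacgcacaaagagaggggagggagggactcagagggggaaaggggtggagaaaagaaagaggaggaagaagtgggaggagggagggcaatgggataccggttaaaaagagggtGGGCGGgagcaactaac
The match lay 79 to 74 bases before the start of Gja4 and 17 to 12 bases before that of Gja5, and 32.7% of 32851 promoter windows of this length hold such a match. Gja1 had none, but held an AP-1 match (TGAGTCA, 4.46% of windows) and a GATA match (AGATAA, 9.99%). None of the 3 windows held the letters searched for a TATA box (TATAAA), ETS (CCGGAA), RBPJ (TGGGAA), SOX (ACAATG) or an E-box (CACGTG). These are matches of letters, not sites.

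The rest of the family was largely silent. Of the 12 other connexin genes reported here, 4 were detected in 0 cells, namely Gja10, Gjb1, Gjb2 and Gjb6, which were listed at 0 throughout. For each the exact interval allows up to 4.30% of cells. A further 6 were found in 1 to 9 cells: Gjd4 in 9, Gjb5 in 2, and Gja3, Gja6, Gjd2 and Gjd3 in 1 each. Gjc3 and Gje1 were the exceptions, in 83 and 82 cells, but at low and even levels, with medians of 12.2 and 9.33 TPM and maxima of 118 and 106. Of their words of 67 bases, 0.933% in Gjc3 (with 139 genes) and 2.12% in Gje1 occurred in transcripts of other genes, and Gje1 overlaps Nmbr on the opposite strand, so both counts are uncertain. Of the pannexins, which form channels in the membrane without docking, Panx1 was detected in 22 cells, with a maximum of 214 TPM, and Panx2 and Panx3 in 0. Its correlations with the members ran from -0.18 to -0.06.

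**Figure D5:**
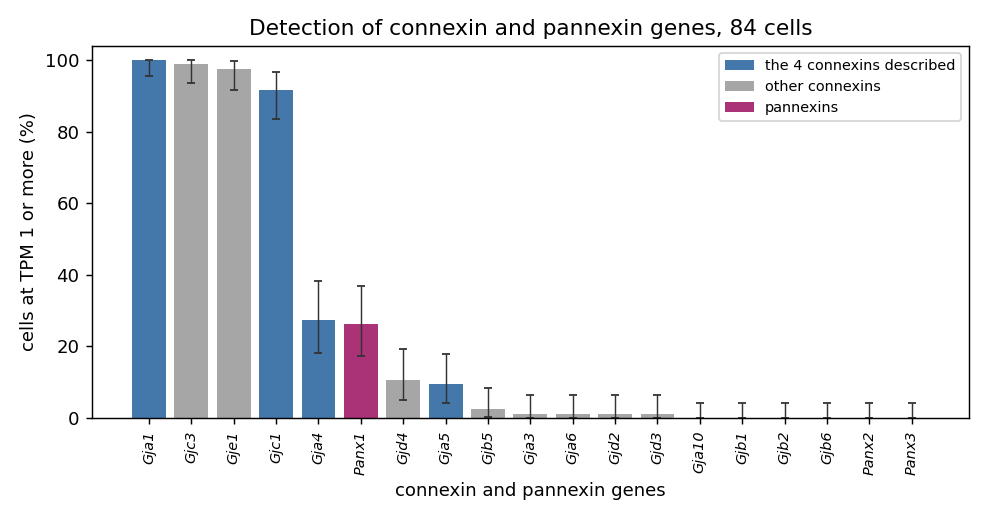
Share of the 84 cells, in percent, in which each connexin and pannexin gene reported here was detected at TPM 1 or more (bars), with exact 95% intervals (lines). Gja1, Gjc3, Gje1 and Gjc1 stand at 91.7% to 100%, Gja4 and Panx1 at 27.4% and 26.2%, and the others at 10.7% or less.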

How the data were processed

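Single-cell RNA-seq libraries of 84 cells were analysed. The deposited TPM values (transcripts scaled to a fixed total) were made by the authors: the tools were RSEM 1.2.3, Bowtie 0.12.9 and CASAVA 1.8.2 with the build mm10, per the submitters' processing notes. The sources used here do not give their order, settings or gene annotation. Sequencing depth cannot be read from TPM, and a 0 can be a missed transcript. Cells held 3334 to 10073 genes at TPM 1 or more, and 0 cells fell under the limit of 1000.

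The members and the gene lists were chosen with earlier results of these data known. Detection was TPM 1 or more, and markers were counted at TPM 10. Intervals are exact Clopper-Pearson intervals at the 95% level. Correlations used log2(TPM + 1), which understates differences of low genes, over genes detected in 10 or more cells, with 0.3 as the limit counted. Ward clustering used 10 principal components of the 1000 most variable genes for their mean, leaving out all 213 listed genes; the number of clusters (2 to 6) had the highest silhouette (0.404, next 0.181). No doublet caller was run. Coordinates and promoters come from RefSeq GRCm38.p6, coding stretches from GENCODE M21; the 18956 symbols (93.3%) found in RefSeq include every connexin reported. Values of some other genes and sequences are not reported here. Protein sequences were not used here. Named genes were the members, the family genes, the 5 genes most like each member, the extremes of each list and the sort genes; other genes and all single cells were chosen after their values were seen. Alternatives covered detection limits, cells left out, clustering, pseudocount, filter, scaling and rank correlation. Python 3.11.15, numpy 2.4.6, pandas 2.3.3, scipy 1.17.1 and scikit-learn 1.9.0 were used, and the correlation script was checked on simulated data.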

Additional observations from a re-analysis of the deposited data

How the results depend on the processing

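Under alternatives 402 values were recomputed, and some of them could not move. Gja1 was in every cell, so its detection and its pair ratios stayed fixed whichever cells were left out. The gene filter could not change the correlation of Gja4 and Gja5. With these counted in, 378 of the 402 stayed within the spread or interval set for them, on the same side of the limit where there was one. Of these, 17, all small differences or correlations, changed sign. Among them, the mean of Gja1 in the mesenchyme-like cells minus that in the others went from -0.45 to 0.14, 0.05 and 0.05 under 3 of the 4 other clusterings, and the median r of Gja4 with venous genes from 0.05 to -0.01 with Spearman's rho and without the mesenchyme-like cells. With any TPM above 0 the share of cells with Gja5 was 23.8%, and at TPM 10 that with Gjc1 was 65.5%. With the larger gene set, a pseudocount of 10 or median-of-ratios scaling in the clustering, the mean of Gjc1 was higher in the mesenchyme-like cells than in the others, by 0.26, 0.39 and 0.37 on the log2 scale, in place of a difference of -1.51; those clusters held 17, 22 and 22 cells. The correlation of Gja4 and Gja5 was 0.29 as Spearman's rho, under the limit of 0.3. Counts of genes at 0.3 or more moved most. For Gja5 and arterial genes the count of 1 became 0 with rho, 3 without the filter and 2 without the mesenchyme-like cells; for flow genes the count of 3 became 1 with rho. For flow genes the count of 1 became 2 with rho for Gja4 and 0 with a pseudocount of 10 for Gjc1. For G2M genes the count of 4 for Gjc1 became 1 with a pseudocount of 10 and 0 with rho. The count of 1 for Gja1 became 0 with a pseudocount of 10, rho, scaling or without the mesenchyme-like cells, and 2 with a pseudocount of 0.1. The causes were not tested. The median r of Gja4 with arterial genes stayed between 0.25 and 0.27. No paired analysis was possible because the 84 cells form 1 group. A TPM table holds no depth, so the smallest level that could be seen in a cell is unknown.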

Other observations

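Cell 41, chosen after its values were seen, had the lowest connexin sum of all cells, with Gja1 at 3.43 TPM and Gja4, Gja5 and Gjc1 at 0, although 7177 genes were detected in it. It was the only cell in which Gja6, a connexin gene known from testis, was detected, at 193 TPM, while 6 of the other 83 cells held a value above 0, of at most 0.49 TPM. The value of Gja6 is uncertain, since reads at its locus may be divided between genes. The same cell held the platelet genes Pf4 at 35696 TPM and Ppbp at 10388 TPM, and all 7 genes of the megakaryocyte or platelet list at TPM 10 or more. That list summed to 50782 TPM in cell 41 and to at most 429 TPM in any other cell. Endothelial genes were present beside them, with Kdr at 190 TPM and Emcn at 306 TPM, and 11 of 17 pan-endothelial genes reached TPM 10, against a median of 14 in the other cells. Whether 1 cell or more than 1 stood behind this library was not tested. The other cells with Gja1 under 10 TPM, cells 7 and 5, held 9 and 14 of the 17 genes at TPM 10, and their sums over the platelet list were 0 and 1.12 TPM.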
